A study of Mus musculus with 12 samples.

Results

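The genes described here mark the 2-cell-like state, a transcriptional state that mouse embryonic stem cells (ESCs) enter rarely and transiently and that resembles the embryo after its first cleavage. Of 7 listed genes, 5 had a row among the 26061 genes of the deposited table: Zscan4c, Zscan4d, Zscan4f, Zfp352 and Tmem92, the last under its older symbol Tmem92-ps. Tcstv1 and Tcstv3 were not analysed here. The rule takes the genes by name and sets no threshold on their values. However, the members and the further gene lists used below were chosen with earlier results of these data known. Their counts beside those of all genes are therefore descriptions. Of the 5 genes, 4 passed the filter on low values (a mean over all libraries that exceeds the value of 0 reads by 1 or more). Zfp352 did not, and its values are given without a test across genes.

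In the embryo, genes of this state are switched on when the zygotic genome is first transcribed, many of them from long terminal repeats of the retrovirus MERVL or by the transcription factor DUX. In ESC cultures, only a small share of the cells hold their RNA at any time, so a change in bulk RNA can come from more cells in the state or from more RNA per cell, and the data cannot tell these apart. Zscan4 genes encode zinc finger proteins with a SCAN domain that are known for telomere maintenance in ESCs. Zfp352 encodes a further zinc finger protein and Tmem92 a membrane protein. Chromatin repressors such as SETDB1 and its partner TRIM28 are known to keep the state rare.

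All 12 RNA-seq libraries were from Tet2 KO mouse ESCs, made by targeting exon 14 with a floxed neomycin cassette and then stably rescued with a PiggyBac construct for WT TET2 or for its catalytic mutant (H1304Y, D1306A). TET2 oxidises methylated cytosine, and the mutant lacks that activity. Every library also carried shSetdb1, an shRNA against Setdb1 delivered by lentivirus with puromycin selection for 3 days. Each line was grown in 2i with LIF (naïve) or in serum with LIF (primed), with 3 libraries in each of the 4 groups. No library with a control shRNA was analysed here, and no value below measures the response to SETDB1 depletion. Whether the libraries of a group came from separate cultures was not given in the sources used here, and the p-values measure the spread between these libraries only. The labels name no separate rescue lines within a construct, so effects of the line and of the construct cannot be told apart.

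The libraries held 8066662 to 21335933 gene reads (median 11163987). Setdb1 was read in every library, at 154.9 to 268.2 normalised reads in naïve WT, 148.8 to 236.4 in naïve mutant, 264.8 to 310.0 in primed WT and 157.0 to 346.6 in primed mutant, with overlapping ranges between lines. In both media the WT line had more Tet2 reads, which include those of the construct, at 6786 to 16372 against 1525 to 3918 normalised reads in naïve ESCs and 24399 to 34786 against 5756 to 9846 in primed ESCs. These are RNA values, whereas by Western blot the paper reported similar amounts of WT and mutant TET2 protein. The 14 Y-linked genes tested had a median WT minus mutant difference of 1.35 in naïve and 1.48 in primed ESCs on the log2 scale. The 5 ESC markers Pou5f1, Nanog, Sox2, Esrrb and Zfp42 had at least 1061 reads in any library. Replicate 3 was the highest library of its group in all 4 groups for 56.3% of repeat classes, but for 2.97% of genes. The part of these differences in the results below was not tested.

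The Zscan4 members lie in a cluster on chromosome 7 of mm9. Zscan4c spans positions 11591071 to 11595896 on the plus strand, Zscan4d 11746992 to 11751497 on the minus strand and Zscan4f 11983264 to 11988090 on the plus strand. Zscan4b, Zscan4e and Zscan4-ps2, which are in the same cluster, are no members and are given only where reads may be shared. Zfp352 lies on chromosome 4, positions 89885511 to 89892393 (plus strand), and Tmem92 on chromosome 11, positions 94638531 to 94644017 (minus strand).

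The coding sequences of Zscan4c, Zscan4d and Zscan4f have 1518 bases each without the stop codon. Zscan4c and Zscan4f differ at 6 of them, and each differs from Zscan4d at 35. The stretch of 1 read length (75 bases, within 1 coding exon) with the most differences among these 3 genes is shown. It was chosen without regard to the other Zscan4 rows, and how well its reads can be placed was not measured. It runs from coding base 1046 to 1120, at chr7:11594870-11594944 (Zscan4c, plus strand), chr7:11747671-11747745 (Zscan4d, minus strand) and chr7:11987063-11987137 (Zscan4f, plus strand) of mm9. Capitals mark the 8 positions at which the 3 genes are not all alike.
Zscan4c: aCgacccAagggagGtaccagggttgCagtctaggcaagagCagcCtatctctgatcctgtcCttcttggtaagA
Zscan4d: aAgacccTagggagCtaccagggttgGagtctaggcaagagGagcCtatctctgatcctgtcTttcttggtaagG
Zscan4f: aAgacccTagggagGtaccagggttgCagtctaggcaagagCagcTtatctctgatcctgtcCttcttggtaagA
Even here Zscan4c and Zscan4f differ at only 3 of 75 bases, and elsewhere they share a run of 407 coding bases with no difference.

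The sequence upstream of the 3 genes is shared as well. The stretches below are set by their single TATAAA, from 140 bases before it to 20 after it, and end before the annotated gene. They lie at chr7:11590900-11591065 (Zscan4c, plus strand), chr7:11751537-11751702 (Zscan4d, minus strand) and chr7:11983093-11983258 (Zscan4f, plus strand) of mm9, and were located there by exact match of the upstream sequences that RefSeq gives on GRCm38.p6. Capitals mark TATAAA and the 9 bases at which TGATTNAAT, letters known from the binding motif of DUX, were searched on both strands.
Zscan4c: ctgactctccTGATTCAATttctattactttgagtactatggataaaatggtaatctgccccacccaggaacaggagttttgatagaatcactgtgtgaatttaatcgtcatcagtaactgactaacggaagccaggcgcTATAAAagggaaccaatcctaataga
Zscan4d: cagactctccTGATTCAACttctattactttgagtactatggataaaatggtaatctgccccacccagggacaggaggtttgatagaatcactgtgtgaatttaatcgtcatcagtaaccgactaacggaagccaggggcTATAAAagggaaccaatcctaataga
Zscan4f: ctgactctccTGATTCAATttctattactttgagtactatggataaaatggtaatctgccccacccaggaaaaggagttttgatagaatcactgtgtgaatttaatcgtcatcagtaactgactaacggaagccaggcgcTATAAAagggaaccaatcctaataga
Zscan4c and Zscan4f differ at 1 of 166 bases, Zscan4c and Zscan4d at 6, and Zscan4d and Zscan4f at 7. TGATTNAAT was found in Zscan4c and Zscan4f and not in the 250 bases upstream of Zscan4d, where the aligned letters carry T9C (Zscan4c base, position counted from the first T, Zscan4d base). Of 27025 upstream regions of 250 bases, 0.681% held TGATTNAAT and 13.0% held TATAAA on either strand, and the upstream region of Zfp352 held neither.

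How far reads of the members can be told apart was measured from the genome. Of the 75-base windows inside the annotated exons, 76.7% for Zscan4c, 39.1% for Zscan4d and 96.3% for Zscan4f had a second exact copy in mm9. The share was 13.2% for Tmem92 and 3.03% for Zfp352. Zscan4f shared 84.0% of its windows with Zscan4-ps2 and 62.8% with Zscan4c. Since the authors placed a read with several equal positions at random, the Zscan4 rows are uncertain as single genes, and their sum is given beside them. Zscan4d had the smallest shared part among the 3 Zscan4 members.

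**Figure D1:**
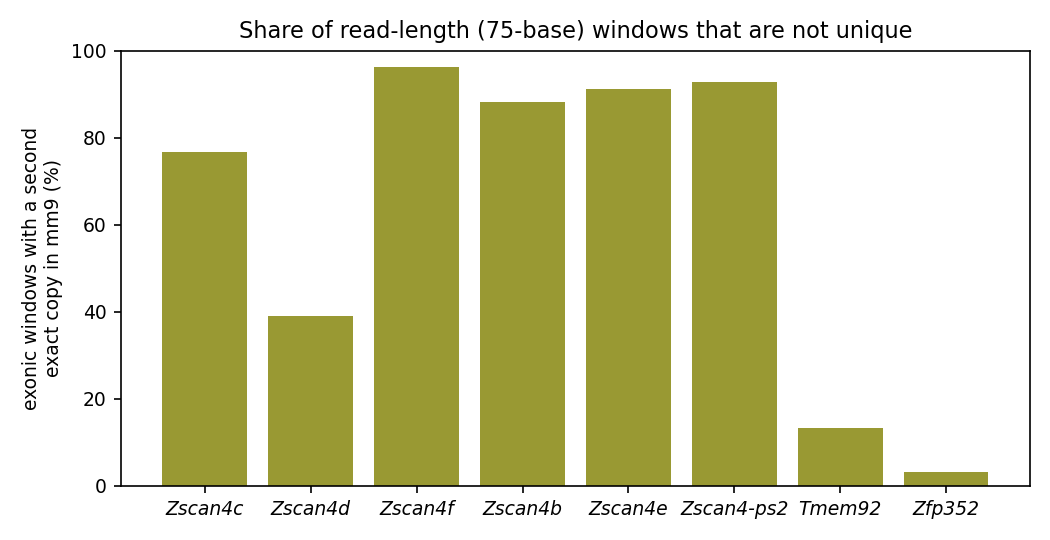
Share of 75-base windows inside annotated exons (y axis, percent) that occur at least once more, on either strand, in mm9, for the 5 members and the 3 other Zscan4 rows (x axis). The Zscan4 rows lie between 39.1% and 96.3%, and Tmem92 and Zfp352 lie at 13.2% and 3.03%.

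In naïve ESCs, each of the 4 members tested had its 3 mutant libraries above its 3 WT libraries, by 1.59-fold (Zscan4d) to 2.68-fold (Zscan4c) in mean normalised reads, but none passed the test across all genes. Normalised reads are the reads of a gene divided by the size factor of the library. They are levels of a row and are not scaled to the length of the gene.

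Zscan4c had 28.0, 30.2 and 28.9 normalised reads in the WT libraries and 69.3, 60.8 and 103.3 in the mutant libraries. The groups did not overlap, and replicate 3 was the highest mutant library. On the deposited log2 scale the means were 5.74 ± 0.032 and 6.68 ± 0.31 (SD, n = 3 each), a WT minus mutant difference of -0.94 ± 0.33 (SE; adjusted p = 0.291). Each SE pools the spread of all 4 groups, though their spreads differed. With only the 6 naïve libraries the SE was 0.216 (adjusted p = 0.267).

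Zscan4f had 23.4, 31.2 and 34.0 normalised reads with WT TET2 and 80.3, 46.7 and 108.4 with mutant TET2, again without overlap. Its difference was -0.92 ± 0.34 (SE) on the log2 scale (adjusted p = 0.299).

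Zscan4d had 46.7, 28.3 and 46.4 normalised reads with WT TET2 and 49.0, 57.6 and 86.1 with mutant TET2. The groups were close, with the lowest mutant library just above the highest WT library. The difference was -0.45 ± 0.38 (SE) on the log2 scale (adjusted p = 0.611).

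Tmem92 had 11.7, 10.7 and 14.4 normalised reads with WT TET2 and 28.8, 17.4 and 25.2 with mutant TET2. All mutant libraries were higher, and replicate 1 was the highest. The difference was -0.45 ± 0.23 (SE) on the log2 scale (adjusted p = 0.403).

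Zfp352 was at the limit of detection, with 2, 2 and 5 reads in the WT libraries and 1, 0 and 5 in the mutant libraries. The mean normalised reads were 3.15 with WT and 1.24 with mutant TET2, the other direction to the 4 members tested. The groups overlapped (exact two-sided permutation p = 0.3, where 0.1 is the lowest reachable p). With so few reads, neither a difference nor its absence is shown.

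Thus 0 of 4 members were called in naïve ESCs, where 0.0987% of all genes tested were called (14 of 14185). At an unadjusted p under 0.05, 2 members passed (Zscan4c and Zscan4f), where 13.3% of all genes did so. The count of members whose mutant libraries all lay above the WT libraries was 4 of 4, where 8.01% of all genes did so. The 3 Zscan4 members share reads and are not separate observations. The median difference of the 4 members was -0.68 on the log2 scale, against 0.0032 over all genes. An exact two-sided permutation over 6 libraries has 0.1 as its lowest p, which each of the 4 members had. Replicate numbers pair the naïve libraries, and with them as a block 36 genes and no member were called (adjusted p = 0.0674 for Zscan4c and 0.0827 for Zscan4f).

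**Figure D2:**
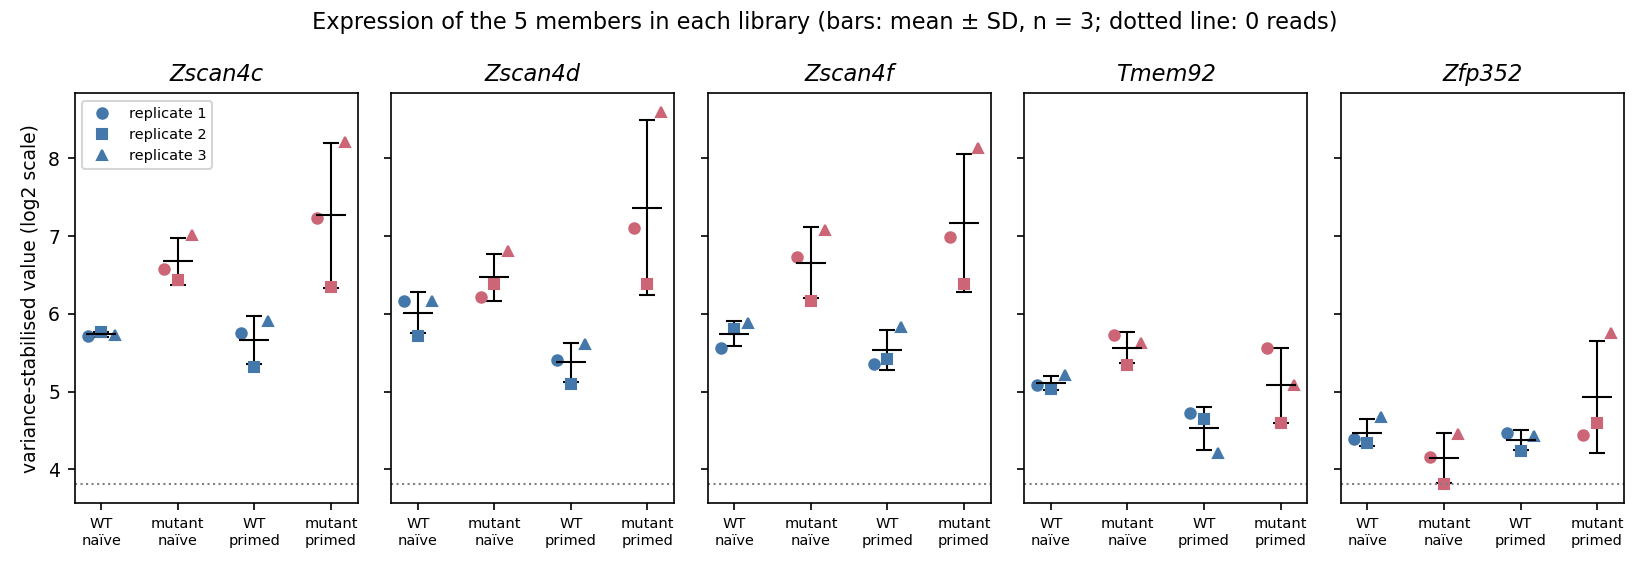
Deposited variance-stabilised values (y axis, log2 scale) of the 5 members in the 12 libraries, by group (x axis), with circles, squares and triangles for replicates 1, 2 and 3, bars for the mean ± SD (n = 3) and a dotted line at the value of 0 reads. The mutant libraries of the 3 Zscan4 genes lie above the WT libraries of the same medium, and replicate 3 of the primed mutant group is the highest library of each of them.

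In primed ESCs, the Zscan4 members differed more widely between the lines. Zscan4d was called, at 9.43-fold more normalised reads with mutant TET2. Zscan4c (5.49-fold) and Zscan4f (5.95-fold) lay just outside the threshold. Without replicate 3 of the mutant group, the folds of means were 4.54, 3.30 and 3.44.

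Zscan4d had 19.1, 12.1 and 24.9 normalised reads in the WT libraries and 111.5, 58.2 and 359.3 in the mutant libraries. The groups did not overlap, and the mutant libraries spread more than the WT libraries, from 58.2 in replicate 2 to 359.3 in replicate 3. The log2-scale means were 5.38 ± 0.26 and 7.37 ± 1.12 (SD, n = 3 each), a WT minus mutant difference of -1.99 ± 0.38 (SE; adjusted p = 0.0336).

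This call depended on the libraries and on the settings. It was kept without replicate 3 of the primed mutant group (-1.38, adjusted p = 0.0331) and without replicate 2 (-2.48, adjusted p = 0.00251). It was lost without replicate 1 of that group (adjusted p = 0.0961) and without replicate 1, 2 or 3 of the primed WT group (adjusted p = 0.166, 0.113 and 0.118). With no filter (adjusted p = 0.0559), with voom on the reads (0.1) or with the 6 primed libraries alone (0.117) it was lost as well.

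Zscan4c had 29.4, 16.9 and 35.5 normalised reads with WT TET2 and 123.9, 56.0 and 269.2 with mutant TET2. The difference was -1.60 ± 0.33 (SE) on the log2 scale (adjusted p = 0.0537). With only the 6 primed libraries its SE was 0.373 (adjusted p = 0.149). Zscan4f had 17.7, 19.3 and 32.3 normalised reads with WT TET2 and 100.5, 58.2 and 253.3 with mutant TET2, with a difference of -1.64 ± 0.34 (SE; adjusted p = 0.0537). In neither gene did the groups overlap, and in both the order of the mutant libraries was that of Zscan4d. Without replicate 2 of the primed mutant group, the lowest of the 3, both were past the threshold (adjusted p = 0.00251 and 0.00754). Neither was in the other 5 fits that left out 1 library, with adjusted p up to 0.219 for Zscan4c and 0.308 for Zscan4f (without WT replicate 1), and without mutant replicate 3 the differences were -1.13 and -1.16 (adjusted p = 0.0573 and 0.0566).

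Tmem92 had 5.89, 4.82 and 1.06 normalised reads with WT TET2 and 23.4, 4.31 and 11.7 with mutant TET2. These stand for 2 to 4 and 4 to 17 reads, and the groups overlapped. The difference was -0.56 ± 0.23 (SE) on the log2 scale (adjusted p = 0.265). The order of its mutant libraries was not that of the Zscan4 genes, since replicate 1 and not replicate 3 was the highest.

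Zfp352 had 2, 1 and 5 reads in the WT libraries and 2, 4 and 28 in the mutant libraries. Only replicate 3 of the mutant group stood apart, the same library that was the highest for the Zscan4 genes (exact two-sided permutation p = 0.2).

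In all, 1 of 4 members was called in primed ESCs, where 0.254% of all genes tested were called (36 of 14185, 29 of them higher with WT TET2 and 7 lower). All 4 members had an unadjusted p under 0.05, where 16.2% of all genes did so. For 3 of the 4, every mutant library lay above every WT library, where 10.9% of all genes did so. The median difference of the members was -1.62 on the log2 scale, against 0.0087 over all genes. By exact permutation (two-sided), each Zscan4 member was again at the lowest reachable p of 0.1, and Tmem92 at p = 0.3.

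**Figure D3:**
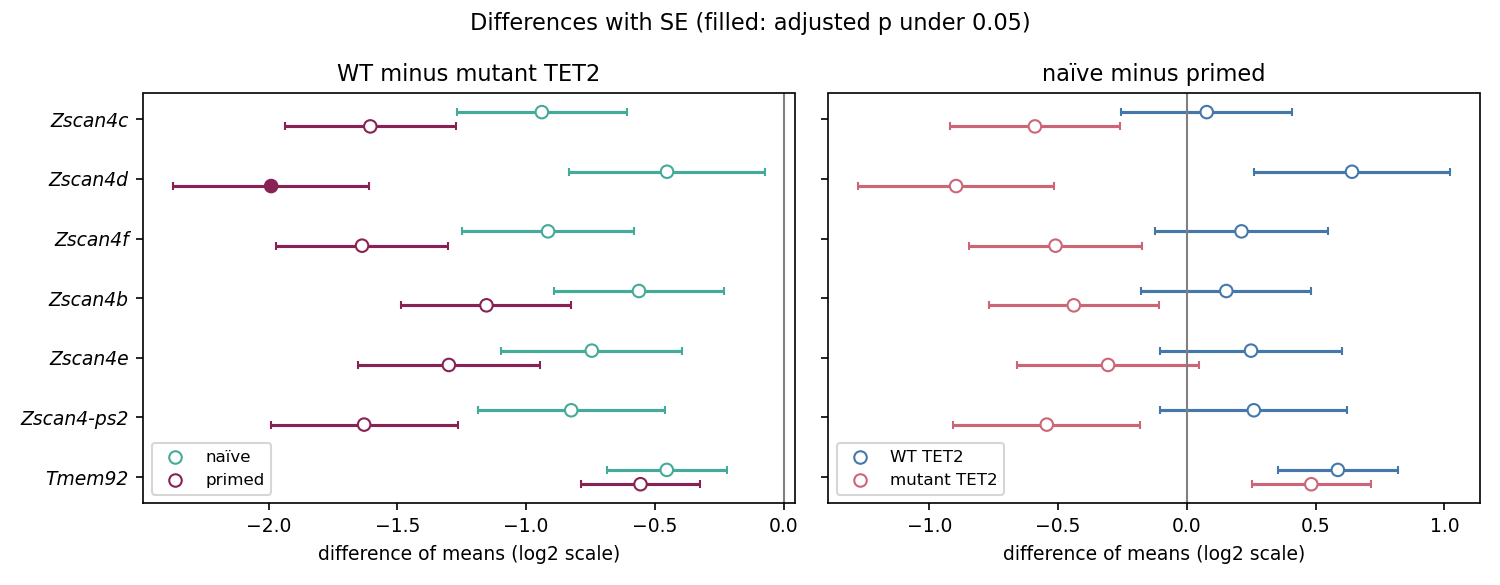
Differences of group means (x axis, log2 scale) with their SE for the 4 tested members and 3 other Zscan4 rows (y axis), between WT and mutant TET2 in each medium (left) and between media in each line (right), with filled points at an adjusted p under 0.05. Every WT minus mutant difference shown is below 0, and Zscan4d in primed ESCs, at -1.99, has the only filled point.

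Summed over Zscan4c, Zscan4d and Zscan4f, which removes the split of reads among these 3 rows, naïve ESCs had 98.1, 89.6 and 109.3 normalised reads with WT TET2 and 198.7, 165.0 and 297.8 with mutant TET2. Primed ESCs had 66.2, 48.2 and 92.7 with WT TET2 and 336.0, 172.3 and 881.9 with mutant TET2. The mutant libraries were again above the WT libraries of their medium, by 2.23-fold in the means of naïve and 6.71-fold in those of primed ESCs. With Zscan4b, Zscan4e and Zscan4-ps2 added, the folds were 2.29 and 6.60. Without replicate 3 of the primed mutant group, the primed folds were 3.68 for the 3 rows and 3.48 for the 6 rows. The largest sum of the 6 rows was 1417 normalised reads, or 0.012% of gene reads, in replicate 3 of the primed mutant group. The smallest, 92.8, was in replicate 2 of the primed WT group.

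The levels of the members were compared only per length, as RPKM, the reads scaled to the length of the annotated exons and to the gene reads of the library. In naïve WT ESCs Zscan4d had the highest mean (1.68 ± 0.44, SD, n = 3), Zscan4c (1.05 ± 0.040) and Zscan4f (1.00 ± 0.17) differed by less than their spread, and they were followed by Tmem92 (0.464 ± 0.064) and Zfp352 (0.111 ± 0.059). In naïve mutant ESCs Zscan4c, Zscan4f and Zscan4d had 2.85 ± 0.90, 2.72 ± 1.14 and 2.71 ± 0.90 RPKM, which differ by less than their spread. Tmem92 and Zfp352 had 0.912 ± 0.228 and 0.0455 ± 0.0549 RPKM there. In primed WT ESCs the 3 Zscan4 genes had 0.809 to 1.02 RPKM, again within their spread, Tmem92 0.152 ± 0.097 and Zfp352 0.0837 ± 0.0346. In primed mutant ESCs Zscan4d, Zscan4c and Zscan4f had 7.42 ± 6.88, 5.44 ± 4.04 and 4.73 ± 3.61 RPKM. There Tmem92 (0.494 ± 0.352) and Zfp352 (0.444 ± 0.552) could not be ordered.

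Between media, no member was called. This compares naïve with primed ESCs of the same line, where 35.9% of all genes tested were called with WT TET2 and 35.2% with mutant TET2. With WT TET2, 0 of 4 members were called and 1 had an unadjusted p under 0.05, where 45.7% of all genes did so. This member was Tmem92, at a naïve minus primed difference of 0.59 ± 0.23 on the log2 scale (SE; adjusted p = 0.0584). It had 10.7 to 14.4 normalised reads in naïve and 1.06 to 5.89 in primed libraries. Zscan4d had a difference of 0.64 ± 0.38 (adjusted p = 0.201), at 28.3 to 46.7 and 12.1 to 24.9 normalised reads. These ranges do not overlap, but the share of all genes without overlap between media was not measured. The differences of Zscan4c and Zscan4f were 0.077 ± 0.331 and 0.21 ± 0.34.

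With mutant TET2 the Zscan4 differences had the other sign, at -0.59 ± 0.33 for Zscan4c, -0.90 ± 0.38 for Zscan4d and -0.51 ± 0.34 for Zscan4f (SE; adjusted p = 0.179, 0.078 and 0.253). In each the naïve and primed libraries overlapped. The differences rested on single primed mutant libraries. Without replicate 3 they were -0.12, -0.28 and -0.029 (adjusted p = 0.764, 0.428 and 0.945), and without replicate 2 they were -1.05, -1.38 and -0.90, all past the threshold (adjusted p = 0.0135, 0.0085 and 0.0495). Tmem92 was at 0.48 ± 0.23 (adjusted p = 0.116), and at 0.72 (adjusted p = 0.0259) without replicate 1 of that group. At an unadjusted p under 0.05, 1 of 4 members passed with mutant TET2, where 45.0% of all genes did so. Zfp352, which was under the filter, had a difference of -0.79 with exact two-sided permutation p = 0.2, and an adjusted p of 0.0405 when no filter was used.

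The 5 trophoblast markers moved with the medium and were summed to 35.5 to 59.7 normalised reads in naïve and 263.9 to 494.4 in primed libraries. All 3 that were tested were called higher in primed ESCs in both lines. Between media, 35.9% of all genes with WT TET2 and 35.2% with mutant TET2 were called in either direction. In primed ESCs the sums also separated the lines, in the other direction to the Zscan4 members, at 366.5 to 494.4 with WT and 263.9 to 347.0 with mutant TET2. Cdx2 of this list, which was under the filter, went against its sum. It had means of 3.42 normalised reads with WT and 9.66 with mutant TET2, with overlapping libraries. Of the 3 tested, 0 were called between the lines in primed ESCs, where 0.254% of all genes were. For 1 of them, Gata3, the difference was 0.56 ± 0.18 (SE; adjusted p = 0.204). Its unadjusted p was under 0.05, as for 16.2% of all genes. Gata3, a defining gene of trophoblast, had 0 reads in every naïve library. The 5 primitive endoderm markers were summed to 25.8 to 71.3 normalised reads in naïve and 59.2 to 92.8 in primed libraries, with 1 of 3 tested (Dab2) called higher in primed ESCs. In primed ESCs these sums separated the lines as well, at 81.1 to 92.8 with WT and 59.2 to 79.7 with mutant TET2. Gata4 of this list went against its sum, with means of 11.2 and 24.0 normalised reads. The part of these markers in the differences between media or lines was not tested.

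The WT minus mutant difference was also compared between media. For Zscan4d the difference was -0.45 in naïve and -1.99 in primed ESCs, and naïve minus primed gave 1.54 ± 0.54 on the log2 scale (SE; unadjusted p = 0.0113, adjusted p = 0.976). The values were 0.67 ± 0.47 for Zscan4c, 0.72 ± 0.47 for Zscan4f and 0.10 ± 0.33 for Tmem92, with adjusted p of 0.976, 0.976 and 0.992. By limma, 0 members and 0.0% of all genes were called, while 489 genes (3.45%) and 1 member had an unadjusted p under 0.05. The wider difference in primed ESCs is therefore not shown to differ from that in naïve ESCs.

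Of 42 other genes listed for the 2-cell-like state, 28 had a row and 16 passed the filter. In naïve ESCs 0 of 16 were called (0.0987% of all genes), 8 had an unadjusted p under 0.05 (13.3% of all genes), and 10 had every mutant library above every WT library (8.01% of all genes). The median difference was -0.66 on the log2 scale, against 0.0032 over all genes. In primed ESCs 3 of 16 were called, all higher with mutant TET2 (0.254% of all genes in either direction), 13 had an unadjusted p under 0.05 (16.2% of all genes), and 12 had every mutant library above every WT library (10.9% of all genes). There the median was -1.17, against 0.0087 over all genes. Many of these genes are near-identical copies of each other, so they share reads as the Zscan4 rows do.

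The 3 called in primed ESCs were Gm5662, Gm2016 and Gm6763, which are predicted genes. Gm5662 had 44.1, 42.2 and 61.5 normalised reads with WT TET2 and 369.1, 162.6 and 906.3 with mutant TET2. Its difference was -2.48 ± 0.39 (SE) on the log2 scale (adjusted p = 0.00907). Gm2016 had 35.3, 43.4 and 51.4 against 274.0, 128.2 and 611.6 (-2.19 ± 0.36, adjusted p = 0.0134). Gm6763 had 19.1, 7.23 and 16.4 against 93.6, 35.5 and 138.9 (-1.55 ± 0.29, adjusted p = 0.0323). In all 3, the order of the mutant libraries was that of the Zscan4 members, with replicate 3 the highest and replicate 2 the lowest.

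In naïve ESCs the 3 genes of this list with the highest mean values were Ddit4l, a stress-responsive inhibitor of mTOR signalling (-0.32 ± 0.21, adjusted p = 0.505), Gm5662 (-1.20 ± 0.39, adjusted p = 0.277) and Gm2016 (-1.05 ± 0.36, adjusted p = 0.281). Between media, Cml2 was higher (1.02 ± 0.28, adjusted p = 0.0106) and the homeobox gene Cphx lower (-1.52 ± 0.21, adjusted p = 4.03e-05) in naïve than in primed ESCs with WT TET2. With mutant TET2, Cphx (-1.02 ± 0.21, adjusted p = 0.0014) and Gm6763 (-0.95 ± 0.29, adjusted p = 0.0192) were lower in naïve ESCs. Dux, which encodes the transcription factor known to activate the state, was named after its values were seen. It had 0 to 14 reads in any library and was under the filter.

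**Figure D4:**
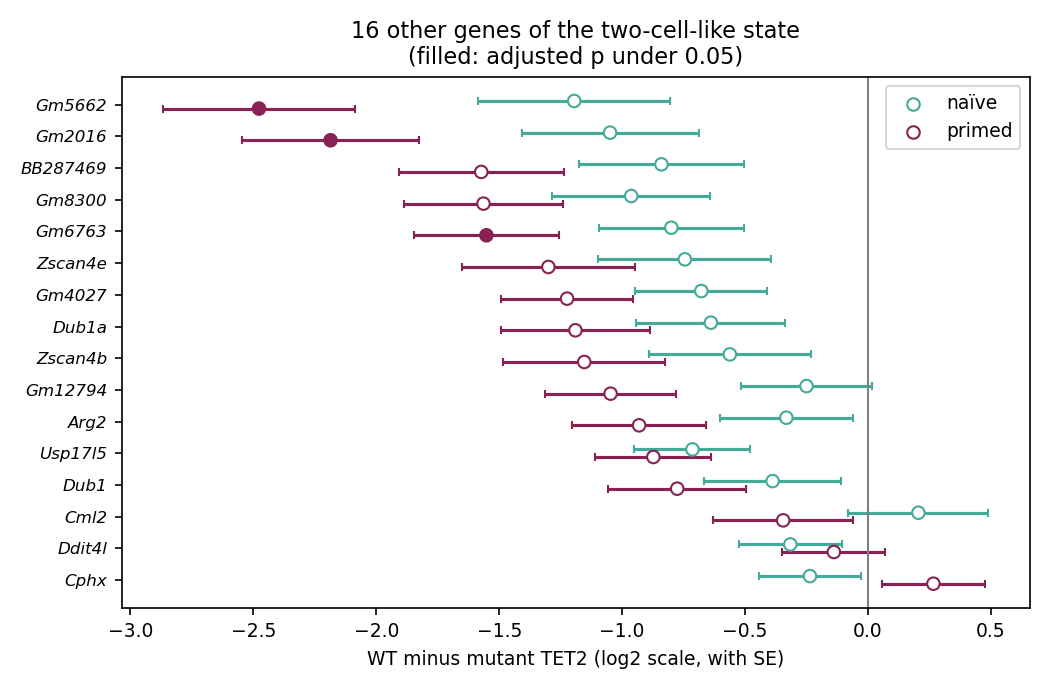
WT minus mutant differences (x axis, log2 scale) with their SE of the 16 tested other genes of the state (y axis, ordered by the primed difference) in naïve and primed ESCs, with filled points at an adjusted p under 0.05. In each medium 15 of 16 points lie below 0, and the 3 filled points, Gm5662, Gm2016 and Gm6763, are in primed ESCs.

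MERVL is the retrovirus whose internal part (MERVL-int) and LTR (MT2_Mm) are transcribed in the state. Both were read from the repeat table, which pools all copies of a class and was normalised separately. In naïve ESCs MERVL-int had values of 10.01, 9.69 and 11.35 on the log2 scale with WT TET2 and 9.99, 9.85 and 11.49 with mutant TET2. The lines overlapped, at a difference of -0.10 (exact two-sided permutation p = 0.8). In primed ESCs it had 10.47, 10.33 and 11.21 with WT TET2 and 10.55, 10.51 and 13.18 with mutant TET2. The difference of -0.75 came mainly from replicate 3 of the mutant group (exact two-sided permutation p = 0.5).

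MT2_Mm was likewise highest in that library, at 11.43 against 9.17 to 10.35 in the other libraries. That library held 3335170 repeat reads, against 8238971 to 13718028 in the other primed libraries. Its size factor, 0.7423, was that of replicate 1 of the primed WT group, which had 8238971 repeat reads. The part of depth and normalisation in these repeat values was not tested. For MERVL-int and MT2_Mm, replicate 3 was the highest library in all 4 groups, as it was for 56.3% of repeat classes and 2.97% of genes. Among the members this held in 4 groups for Zscan4f, in 3 each for Zscan4c, Zscan4d and Zfp352, and in 1 for Tmem92. Replicates 1 and 2 of the mutant groups had more Zscan4 reads than those of the WT groups. They differed from the WT libraries of the same number and medium by at most 0.186 in MERVL-int and 0.203 in MT2_Mm. The numbers do not pair the primed libraries, so there these differences match libraries by label only.

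**Figure D5:**
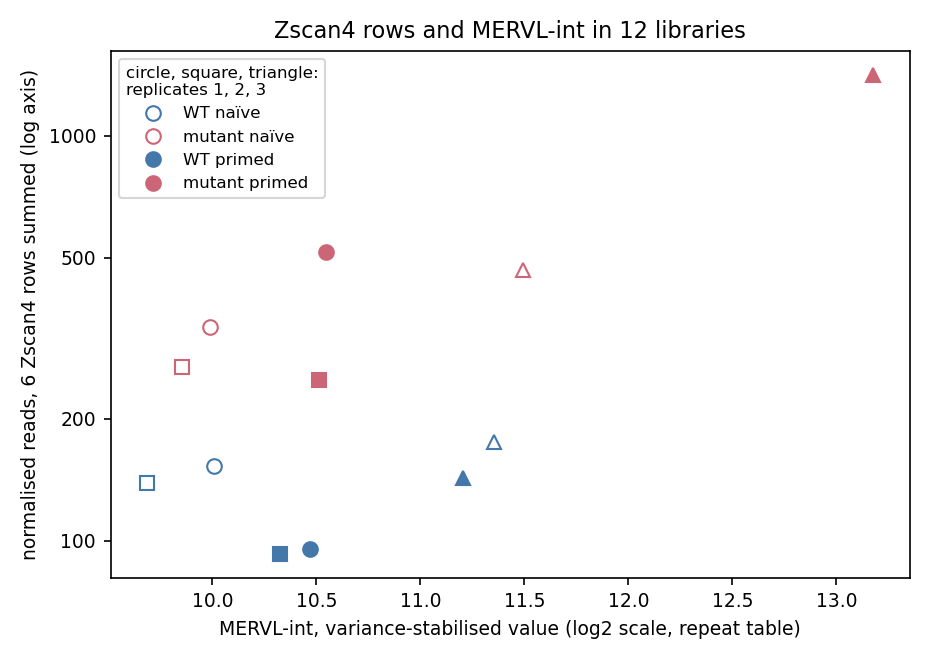
Normalised reads summed over 6 Zscan4 rows (y axis, log axis) against the MERVL-int value (x axis, log2 scale, repeat table) in the 12 libraries, with open points for naïve, filled points for primed, blue for WT and red for mutant TET2. The 6 mutant libraries lie above all 6 WT libraries on the y axis, whereas on the x axis the lines overlap and replicate 3 of the primed mutant group, at 13.18, stands apart.

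Known repressors of the state did not pass the test between the lines. Of 25 genes, 0 were called in naïve and 0 in primed ESCs (0.0987% and 0.254% of all genes). An unadjusted p under 0.05 was found for 4 and 2, where 13.3% and 16.2% of all genes had one. These counts of genes passing a threshold are near the background or below it. The signs were more one-sided than over all genes. Only 2 repressors had a WT minus mutant difference below 0 in the naïve comparison, where 49.57% of all genes had one. In the primed comparison there were 6 such repressors, where the share of all genes was 48.7%. This imbalance of signs was not tested. The median WT minus mutant differences were 0.29 and 0.16 on the log2 scale, against 0.0032 and 0.0087 over all genes. The 3 with the highest mean values were Ncl, which encodes nucleolin, at 0.27 ± 0.17 in naïve and 0.16 ± 0.17 in primed ESCs (SE), Trim28 at 0.28 ± 0.18 and 0.14 ± 0.18, and Rif1, a regulator of replication timing, at 0.66 ± 0.24 and 0.11 ± 0.24. Their adjusted p in naïve ESCs were 0.498, 0.511 and 0.293. Setdb1 itself differed by 0.13 ± 0.25 and 0.16 ± 0.25 (adjusted p = 0.857 and 0.788).

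Between media, 8 of 25 repressors were lower and 2 higher in the naïve libraries with WT TET2, and 10 were lower and 1 higher with mutant TET2. With 35.9% and 35.2% of all genes called in these comparisons, the counts are near the background. The lower genes in both lines included Lin28a, which encodes an RNA-binding protein (-3.07 ± 0.34 with WT and -3.38 ± 0.34 with mutant TET2), Trim28 (-0.94 ± 0.18 and -1.08 ± 0.18), and L3mbtl2 and Max of a Polycomb complex. Chaf1b, a subunit of the chromatin assembly factor CAF-1, was higher in naïve ESCs (0.88 ± 0.19 and 0.75 ± 0.19), whereas its partner Chaf1a was lower (-0.76 ± 0.17 and -0.57 ± 0.17).

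Of 5 activators with a row, 0 were called between the lines in either medium, and 0 had an unadjusted p under 0.05 (13.3% and 16.2% of all genes). The 3 with the highest mean values were Tbx3, Whsc2 and Dppa4, at WT minus mutant differences of 0.29 ± 0.29, 0.19 ± 0.15 and 0.19 ± 0.14 in naïve ESCs. Dppa2 and Dppa4, which encode factors that act upstream of Dux, had lower values in 2i than in serum, at naïve minus primed differences of -1.58 ± 0.22 and -0.47 ± 0.14 with WT TET2 and of -2.19 ± 0.22 and -0.64 ± 0.14 with mutant TET2. Gata2, a transcription factor gene, was lower in naïve ESCs with WT TET2 (-1.12 ± 0.29, adjusted p = 0.00679).

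The genes most like the members were found from the deviations of each library from its group mean, over all genes tested and 12 libraries. The correlations are descriptions, since libraries share depth and the near-identical genes share reads. Pearson's r also weighs most the libraries that deviate most. For the Zscan4 members these were in the primed mutant group (SD 0.886 to 1.125). Zscan4c and Zscan4d had r = 0.944, Zscan4c and Zscan4f r = 0.929 and Zscan4d and Zscan4f r = 0.875, while Tmem92 had r of 0.192 to 0.308 with them. The rank correlations (Spearman) of the Zscan4 pairs were lower, at 0.783, 0.776 and 0.65, and those of Tmem92 were 0.0 to 0.147. For Zscan4c the gene most like it was Gm4027 (r = 0.956), followed by Tcl1, F730043M19Rik, Zscan4b and Zscan4-ps2. For Zscan4d it was Gm4027 (r = 0.963), followed by Gm4340, Zscan4b, Heca and Slco5a1. For Zscan4f it was F730043M19Rik (r = 0.966), followed by Trpa1, Zscan4e, Dub1a and Gm2016. For Tmem92 it was Fbp2 (r = 0.911), followed by Naip1, 2400003C14Rik, 2410003K15Rik and Kdm1a.

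By the mean r over the 4 members, the 10 most alike were Gm8300 (0.794), Zscan4b, Gm5662, Gm2016, Gm6763, Zscan4-ps2, Arg2, Gm4027, Trpa1 and F730043M19Rik (0.761). Their mean rank correlations were 0.559 to 0.67. Trpa1, an ion channel gene, and F730043M19Rik had WT minus mutant differences of -0.029 and 0.027 in naïve ESCs (adjusted p = 0.975 and 0.967) and of -0.37 and -0.054 in primed ESCs (adjusted p = 0.568 and 0.925). Arg2, which encodes a mitochondrial arginase, was at -0.33 in naïve and -0.93 in primed ESCs (adjusted p = 0.601 and 0.172).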

How the data were processed

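Poly(A) RNA-seq data from 12 libraries of shSetdb1-infected Tet2 KO ESCs with WT or mutant TET2 were used, grouped by their labels, and no column of per-sample values was left out. The authors trimmed reads with Trim Galore 0.3.3, aligned them to mm9 with TopHat2 2.0.9 placing reads with equal hits at random, and made values per gene and repeat class with DESeq2. The deposited log2 values are variance-stabilised, and gene and repeat tables were normalised separately. The kit kept no strand.

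The transformation was inverted to whole reads (tolerance 0.01), which gave depth and normalised reads. Comparisons used limma 3.58.1 (R 4.3.3) on the deposited values, with 12 libraries in 1 fit of 4 groups, a variance trend and Benjamini-Hochberg adjustment over 14185 genes. Genes were called at an adjusted p under 0.05. Adjusted p-values are from this test unless an alternative is named beside them, which has its own fit and, where the filter differs, its own number of genes. Each member was tested singly by exact permutation (two-sided). Intervals are not given for reads, which are not independent molecules. Correlations of same-numbered libraries were 0.30 to 0.59 between the naïve groups, so the numbers pair them, and -0.07 to 0.19 between the primed groups. The procedure was tested on simulated data.

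Genes named are the members and, from each list, those called or else the 3 with the highest mean, and the 5 or 10 genes most like the members. Members and lists were chosen with earlier results of these data known. Alternatives were other filters, centring, limma-voom on the recovered reads, a replicate block, only the 6 libraries compared and each library left out. Leaving out replicate 3 of every group was added after the values were seen. Python 3.11.15 was used for tables and figures. Positions and exons are from GENCODE vM1 on mm9.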

Additional observations from a re-analysis of the deposited data

How the results depend on the processing

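Over the alternatives, 329 of 335 member differences kept the sign of the reported value, 15 were past the threshold where the reported one was not, and 7 were not where it was. The cause of these changes was not tested. In naïve ESCs no alternative called a member, while 9 genes in all were called with no filter, 36 with the replicate block, 9 with only the 6 libraries, and 5 to 14 with each library left out (5 without replicate 1 of the mutant group). In primed ESCs, 0 members were called with no filter (adjusted p of Zscan4d 0.0559), with voom (0.1) and with only the 6 libraries (0.117), 3 with centring and with the replicate block, and 0 to 3 with a library left out. Of all genes, 209 were called with the block, 18 with only the 6 libraries, 23 without replicate 3 of every group, where Zscan4d was at -1.49 (adjusted p = 0.0485), and 12 (without WT replicate 1) to 82 (without mutant replicate 3) with a library left out. With numbers that do not pair the primed libraries, the block calls are no separate support. Between media with WT TET2, 1 member was called with voom and with the block (Tmem92) and 2 with only the 6 libraries (Tmem92 and Zscan4d). With mutant TET2, 1 was called with no filter and with the looser filter (Zfp352) and with the block (Zscan4d, adjusted p = 0.0172), and 0 to 3 with a library left out. In the difference between media, 0 to 1 genes were called with a library left out (1 without naïve WT replicate 1), Tmem92 was at -0.14 to 0.34 and, without replicate 3 of every group, at -0.082. Zscan4c between media with WT TET2 was at -0.093 to 0.20 with a library left out. Zfp352 and the primed Tmem92, with under 30 reads in any library, are limited by depth.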
